A study of Mus musculus with 15 samples.

Results

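Cytosolic ribosomal protein genes encode the proteins of the small and large subunits of the ribosome that translates messenger RNA in the cytoplasm. They were taken by symbol: every gene whose name is Rpl or Rps followed by a number, with at most one letter and one digit after it, together with Rpsa, Rplp0, Rplp1 and Rplp2 and without the processed pseudogenes. Of 19938 genes with a probe set of a single symbol, 61 met this rule, 38 of the large and 23 of the small subunit. A further 17 symbols of the rule, among them Rpl3, Rpl39 and Rps27, were present only on probe sets that carry several symbols, and they were not tested as genes.

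The ribosome is built in the nucleolus, where assembly factors fold ribosomal RNA around the ribosomal proteins, and each subunit takes up about one copy of each protein. The messenger RNAs of these proteins are abundant in every cell, and many begin with a tract of pyrimidines, the terminal oligopyrimidine motif, through which the kinase mTOR and the protein Larp1 set how much of them is translated. Developing T cells are sensitive to changes in single ribosomal proteins: loss of Rpl22, for example, arrests αβ T cells in the thymus.

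Total RNA of the whole thymus was measured on Affymetrix Mouse Gene 1.0 ST arrays, 1 for each of 15 female mice that were 5 weeks old. Some belonged to the strain NOD.LCMV and others to NOD.Ln82-LCMV, and each had received 0.5 µg of peptide into a vein 2 h before the thymus was taken. NOD.Ln82-LCMV mice received a control peptide that binds the class I molecule Db (n = 4) or gp33, a peptide of lymphocytic choriomeningitis virus (n = 5). NOD.LCMV mice received the control peptide (n = 3) or gp33 (n = 3), so that no group was left without peptide. The labels describe neither the LCMV component that both strains share nor the Ln82 segment, and they give no processing batch, so strain and a batch that followed strain cannot be told apart.

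Values are on the log2 scale, on which a difference of 1 is a factor of 2. Per array, the median level was 7.59 to 7.67, and correlations across genes within a group were 0.995 or above. Precision is limited by how few arrays there are. The 11 thymocyte markers measured averaged between 10.74 and 11.57 per mouse. In whole tissue, fewer cells of a type and less RNA per cell cannot be told apart. A gene was called where the adjusted p of limma (Benjamini-Hochberg, over all 19938 genes) was under 0.05.

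The first bases of several of these transcripts show the pyrimidine tract described above. They are given for a few members, picked by brightness or from those that differed between groups. The sequences are from RefSeq on the mouse build GRCm38.p6 and run 5′ to 3′ on the strand of the gene, 15 bases before the annotated start and 15 from it on. Capitals mark a tract of C followed by at least 4 further C or T that begins at the start or within 3 bases of it. The genes are the brightest of all members (Rps6), the second brightest (Rpl28) and the member with the largest increase after gp33 (Rpl12). Also given are 3 of the 16 members lower in NOD.LCMV with both peptides (Rps18, Rpl7a, Rps28), which are not those with the largest differences. Larger differences with the control peptide belonged, among others, to Rps27l, which had such a tract, and to Rpl26 and Rps13, which had none.
Rps6 (chr4:86857353-86857382, minus strand): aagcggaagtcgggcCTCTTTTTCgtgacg
Rpl28 (chr7:4792950-4792979, plus strand): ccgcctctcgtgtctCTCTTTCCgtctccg
Rps18 (chr17:33955651-33955680, minus strand): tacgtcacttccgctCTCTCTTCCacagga
Rpl7a (chr2:26910792-26910821, plus strand): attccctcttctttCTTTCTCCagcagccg
Rps28 (chr17:33824548-33824577, minus strand): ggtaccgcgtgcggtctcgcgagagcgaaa
Rpl12 (chr2:32961697-32961726, plus strand): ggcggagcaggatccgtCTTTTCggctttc

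The marked tract began exactly at the annotated start in Rps6, Rpl28 and Rps18. In Rpl7a the capitals began 1 base before the start and in Rpl12 they began 2 bases after it. Just upstream of the capitals C or T continued in all of these, in Rpl7a almost to the edge of the window. In Rps28 no such tract began at the start or within 3 bases of it. Of the 61 members, 49 had a start in the promoter table, 8 of them more than 1. The tract lay exactly at a start of 10 members (20.4%) and within 3 bases of a start of 16 (32.7%), a smaller share than among the genes printed above. Over all genes of that table the shares were 3.01% and 13.5%, and over its 32851 single promoters they were 2.51% and 11.5%. A match describes the annotated start and is not a measured start of transcription. Among members with a start in the table, with the control peptide 4 of the 16 members with it and 7 of the 33 without it were called lower in NOD.LCMV, against 5.54% of all genes. With gp33 it was 5 of 16 and 11 of 33, against 16.8% of all genes.

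The members were among the brightest genes of the thymus arrays. Their median level over all mice was 12.09 against 7.90 for all genes, and 46 of the 61 lay in the brightest 10% of the genes (above 10.70). The highest means belonged to Rps6 (13.48), the small subunit protein that S6 kinases phosphorylate, to Rpl28 (13.38) and to Rplp0 (13.37), the base of the stalk that recruits elongation factors. The lowest belonged to Rpl39l (5.29), Rpl3l (6.16) and Rpl10l (6.65), variants of Rpl39, Rpl3 and Rpl10 known mainly from testis or striated muscle. Brightness differs between probe sets for reasons other than abundance, so these orders describe the array and not amounts of RNA.

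Many of the probe sets sit at copies of the genes. The 61 members had 217 probe sets, up to 14 for Rps12, and each gene was represented by the brightest. The position of each probe set was inferred from the genes with neighbouring probe set numbers, a rule that placed 98.7% of 18900 genes with a single probe set correctly. By this rule the brightest probe set lay at the gene's own locus for 27 members and elsewhere for 34. Such a probe set can detect the parent transcript through near-identical sequence, and signals of parent and copy cannot be separated on it.

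The first question was what gp33 did to these genes in NOD.LCMV mice. Few of them passed the test: 2 of 61 members were called higher, against 7.29% of all genes, and 0 were called lower, against 12.5% of all genes. At an unadjusted p under 0.05, 4 members were higher and 1 was lower. The members' median difference was 0.01 against -0.03 for all genes, and single members ranged from -0.13 to 0.29. The 95% intervals of all members lay between -0.31 and 0.51, with a median standard error of 0.05.

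Rpl12, which sits beside the stalk of the large subunit, was the member with the largest increase. Its log2 values were 9.29, 9.29 and 9.16 in the NOD.LCMV mice with the control peptide and 9.45, 9.65 and 9.52 in those with gp33. The values of the 2 groups did not overlap (exact two-sided permutation p 0.1, the smallest that groups of this size allow). Such separation says little by itself, since a gene without any difference shows it with a probability of 0.1. It was not limited to called members. Rpl7l1, Rps15a and Rps27l were also wholly higher with gp33 and Rps9 wholly lower, without a call. The share of all genes separated in this way is not given here. The difference of Rpl12 was 0.29 ± 0.06 (SE), an increase of 22.5%, with a limma adjusted p of 0.00322. In NOD.Ln82-LCMV the 4 control mice lay between 9.11 and 9.25 and the 5 gp33 mice between 9.19 and 9.38, a difference of 0.08 ± 0.05 with a limma adjusted p of 0.911.

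Rpl30, also a protein of the large subunit, was the other called member. It stood at 10.35, 10.35 and 10.28 with the control peptide and at 10.54, 10.56 and 10.45 with gp33 in NOD.LCMV. These values did not overlap either (exact two-sided permutation p 0.1). The difference was 0.19 ± 0.05 (14.1% higher; limma adjusted p 0.00855). Both probe sets lay at the gene's own locus, and both calls held under each of the 25 alternative settings, between 0.24 and 0.35 for Rpl12 and between 0.17 and 0.24 for Rpl30. Rps15a, a small subunit protein, had the next smallest p, with a difference of 0.18 ± 0.08 (limma adjusted p 0.124).

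**Figure D1:**
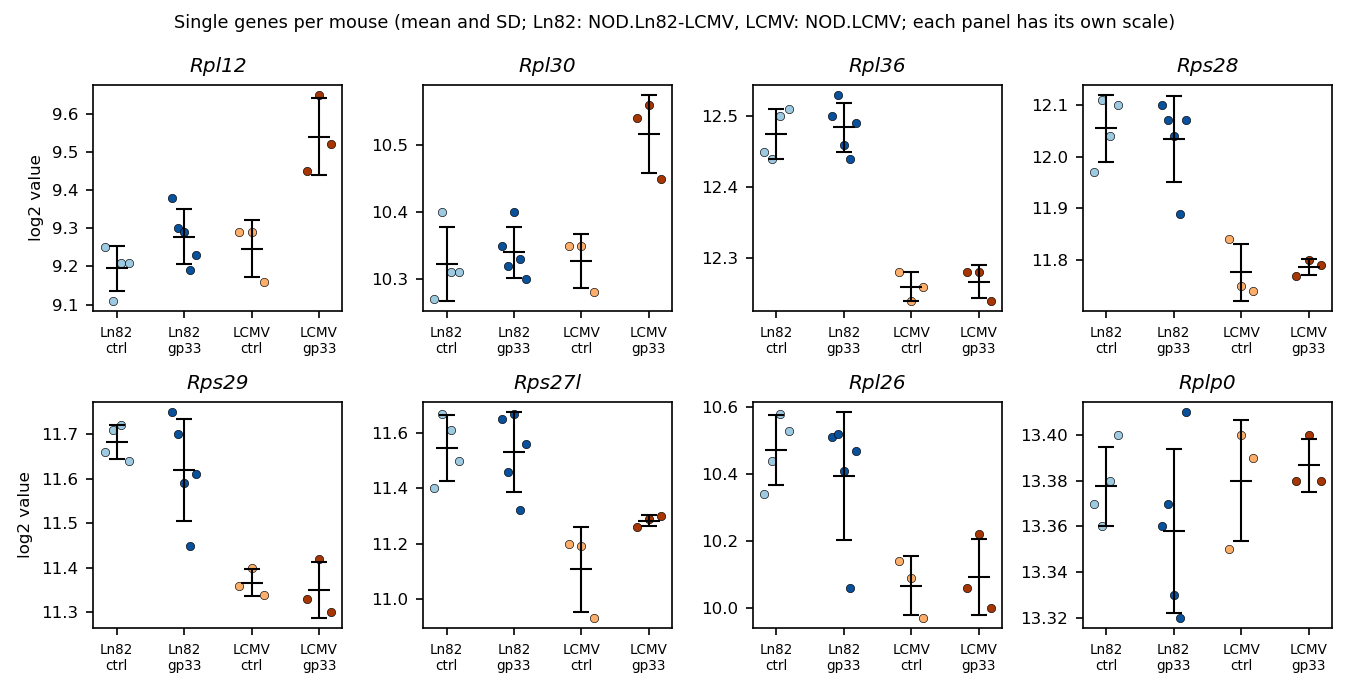
Log2 values of 8 members in each mouse, with the group mean and SD as bars, for NOD.Ln82-LCMV (Ln82) and NOD.LCMV (LCMV) with control peptide (ctrl) or gp33; each panel has its own scale. Rpl12 and Rpl30 are highest in the 3 NOD.LCMV mice with gp33, Rpl36, Rps28, Rps29, Rps27l and Rpl26 are lower in NOD.LCMV with either peptide, and Rplp0 stays between 13.32 and 13.41.

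In NOD.Ln82-LCMV mice gp33 changed 0 members in either direction by limma, against 0.00502% of all genes called higher and 0% called lower. At an unadjusted p under 0.05, 1 member was higher and 0 were lower. That member was Rpl29, at 11.90, 11.96, 11.89 and 11.89 with the control peptide and at 12.00, 11.97, 11.99, 11.98 and 12.00 with gp33. Its groups did not overlap (exact two-sided permutation p 0.00794), but the difference of 0.08 ± 0.03 had a limma adjusted p of 0.809 over all genes. Rpl10l differed by 0.15 ± 0.09 (limma adjusted p 0.905).

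The response to gp33 was then compared between the strains. By limma 0 members were called, against 4.46% of all genes with a larger and 4.26% with a smaller response in NOD.LCMV. The 95% intervals of all members lay between -0.34 and 0.54. At an unadjusted p under 0.05, 3 members had a larger response and 0 a smaller one. Rpl30 came closest, with a response larger by 0.17 ± 0.06 in NOD.LCMV (95% interval 0.04 to 0.30, limma adjusted p 0.0978). For Rpl12 the response was larger by 0.21 ± 0.08 (limma adjusted p 0.136), and for Rpl7l1, a variant of Rpl7 that works in ribosome assembly, by 0.19 ± 0.08 (limma adjusted p 0.167). The call of a gp33 increase in NOD.LCMV alone is therefore not a called difference between the strains.

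Genes that act in building the ribosome rose after gp33 in NOD.LCMV. Of 49 measured genes of ribosome biogenesis, 45 rose (91.8%, against 7.29% of all genes) and 0 fell (against 12.5%), with a median difference of 0.55. Ddx21, a nucleolar RNA helicase, went from 10.80, 10.78 and 10.75 to 11.49, 11.52 and 11.48, a difference of 0.72 ± 0.05 (limma adjusted p 3.56e-08). Wdr43, a factor of small subunit assembly, rose by 0.76 ± 0.04 (limma adjusted p 1.22e-08) and Rcl1, which acts in the processing of ribosomal RNA, by 1.25 ± 0.07 (limma adjusted p 1.31e-08). In NOD.Ln82-LCMV 0 of the 49 were called in either direction by limma, with 8 higher and 0 lower at an unadjusted p under 0.05. The response was larger in NOD.LCMV for 40 of the 49 by the limma test of the difference, against 4.46% of all genes. Markers of cell types moved in the same comparison. Of 11 thymocyte markers 6 were lower with gp33 in NOD.LCMV (54.5%, against 12.5% of all genes) and 0 higher (median -0.36). Of 6 granulocyte markers 3 were higher (50%, against 7.29% of all genes) and 0 lower (median 0.44). Also lower were 2 of 7 thymic epithelium markers, 2 of 7 of macrophages and dendritic cells and 2 of 6 of fibroblasts and endothelium, with 0 higher. Of the B and plasma cell, adipocyte, red cell and skeletal muscle markers 0 were called. The mean of the thymocyte markers ran from 11.26 to 11.47 with the control peptide and from 10.74 to 11.29 with gp33, and that of the granulocyte markers was at most 7.11 with the control peptide and ran from 7.44 to 7.82 with gp33. Their part in the differences after gp33 was not tested.

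Myc, the transcription factor that drives ribosome production, also rose. It stood between 10.76 and 11.05 in the 3 NOD.LCMV mice with the control peptide and between 12.26 and 12.40 in the 3 with gp33, a difference of 1.40 ± 0.07 (limma adjusted p 3.30e-09). Among 17 regulators upstream of ribosome production, 3 rose (17.6%, against 7.29% of all genes) and 2 fell (11.8%), the latter near the 12.5% of all genes. Rheb, the small GTPase that activates mTOR, rose by 0.37 ± 0.06 (limma adjusted p 0.000626), and Sesn1, which restrains it, fell by 0.50 ± 0.08 (limma adjusted p 0.00043).

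Some factors of translation rose as well. Of 14 measured genes that control initiation, 8 rose with gp33 in NOD.LCMV (57.1%, against 7.29% of all genes) and 0 fell (against 12.5%). Among those that rose were Eif1a (0.82 ± 0.07, limma adjusted p 3.38e-07) and Larp1 (0.42 ± 0.06, limma adjusted p 0.000145), the protein that binds pyrimidine tracts. Of 21 other translation factors 3 rose (14.3%, against 7.29% of all genes) and 0 fell (against 12.5%). All 3 were subunits of initiation factor eIF3, of which this list was written to hold many: Eif3a by 0.28 ± 0.05, Eif3c by 0.19 ± 0.04 and Eif3b by 0.26 ± 0.06. Of 77 mitochondrial ribosomal proteins, which belong to the separate ribosome inside mitochondria, 9 rose (11.7%, against 7.29% of all genes) and 3 fell (3.90%, against 12.5%), with a median of 0.02.

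**Figure D2:**
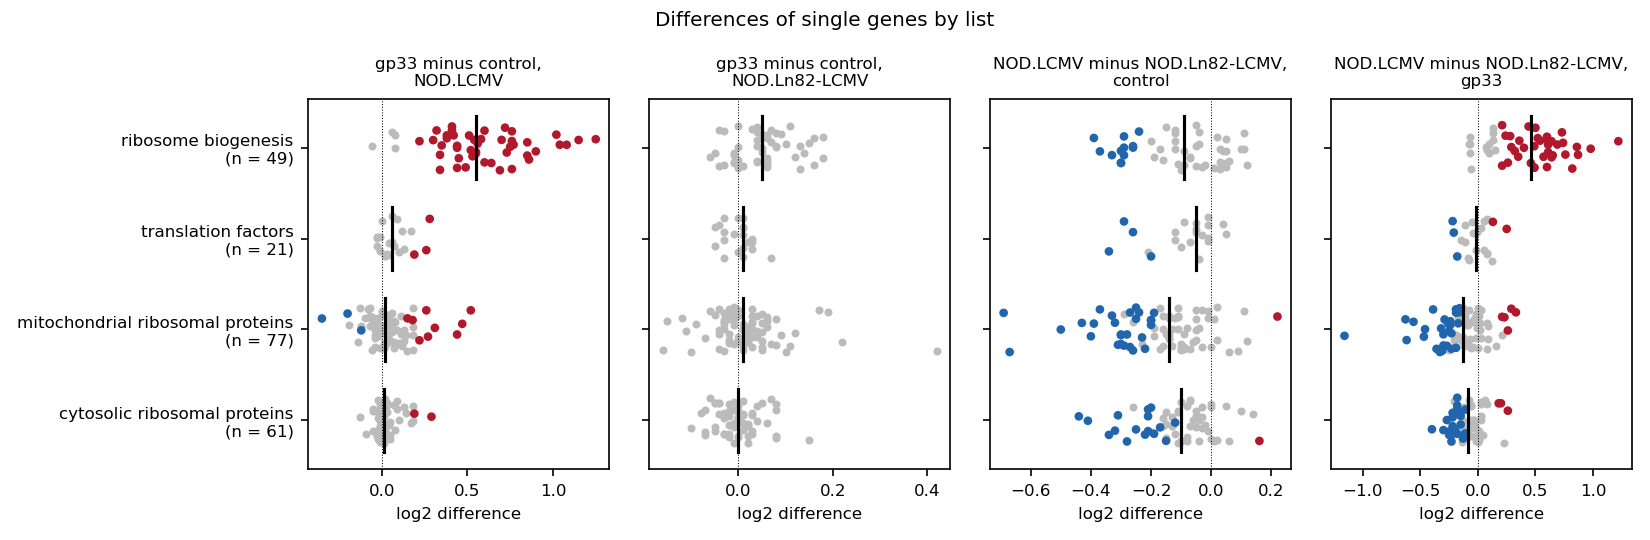
Each point is the log2 difference of 1 gene in 1 comparison (panels; each panel has its own axis), grouped by list, with genes called higher in red, called lower in blue and others in grey, and the list's median as a bar; the vertical spread within a list is only for legibility. After gp33 in NOD.LCMV the ribosome biogenesis genes have a median of 0.55 and the cytosolic ribosomal proteins one of 0.01; in the strain comparisons the ribosomal proteins of both kinds have medians below 0.

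The second question was how the strains differed with the control peptide. In NOD.LCMV 16 of the 61 members were lower (26.2%), against 5.54% of all genes called lower. By contrast 1 member was higher, against 4.77% of all genes. The members' median difference, NOD.LCMV minus NOD.Ln82-LCMV, was -0.10 against 0.01 for all genes. Of the 61 differences 51 were below 0, against 8900 of 19938 over all genes. The differences were small: called members were between 8.14% and 26.2% lower. Both subunits took part, with 10 of 38 large and 6 of 23 small subunit genes called lower.

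With gp33, in other mice of the same strains, 23 of the 61 members were lower in NOD.LCMV (37.7%), against 16.8% of all genes. Another 3 were higher, against 10.2% of all genes. Of the 61 differences 46 were below 0, against 11333 of 19938 over all genes. The members' median difference was -0.09 against -0.02 for all genes. This median was -0.03 after a second quantile normalization, where that of all genes was -0.05, and -0.03 after cyclic loess, where that of all genes was -0.01. Of the large subunit 15 of 38 were called lower, and of the small subunit 8 of 23.

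The same genes were involved with both peptides. All 16 members lower with the control peptide were among the 23 lower with gp33, which is 100% of the first list and 69.6% of the second. Over all genes, 838 of the 1105 called lower with the control peptide were called lower with gp33 too, so such sharing was not particular to the members. Of all genes tested, 4.20% were called lower with both. These 16 were 10 proteins of the large subunit (Rpl7a, Rpl10, Rpl10a, Rpl23a, Rpl26, Rpl27, Rpl27a, Rpl29, Rpl36 and Rpl36a) and 6 of the small (Rps13, Rps14, Rps18, Rps27l, Rps28 and Rps29), on 8 chromosomes with at most 4 on any of them. The 2 comparisons share no mouse, but their calls use 1 estimate of the spread from all 15 mice. Across the 61 members the differences of the 2 comparisons correlated at a Pearson r of 0.82 and a Spearman rho of 0.82. These genes are not independent of each other. The number lower with both was 10 after cyclic loess, after removal of a trend on gene span, or without NOD.LCMV control mouse 3, and it was 25 after median centring. When all mice were pooled by strain, the 6 NOD.LCMV mice lay wholly below the 9 NOD.Ln82-LCMV mice for 16 members, against 4.03% of all genes, and wholly above them for 0, against 1.78% of all genes.

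**Figure D3:**
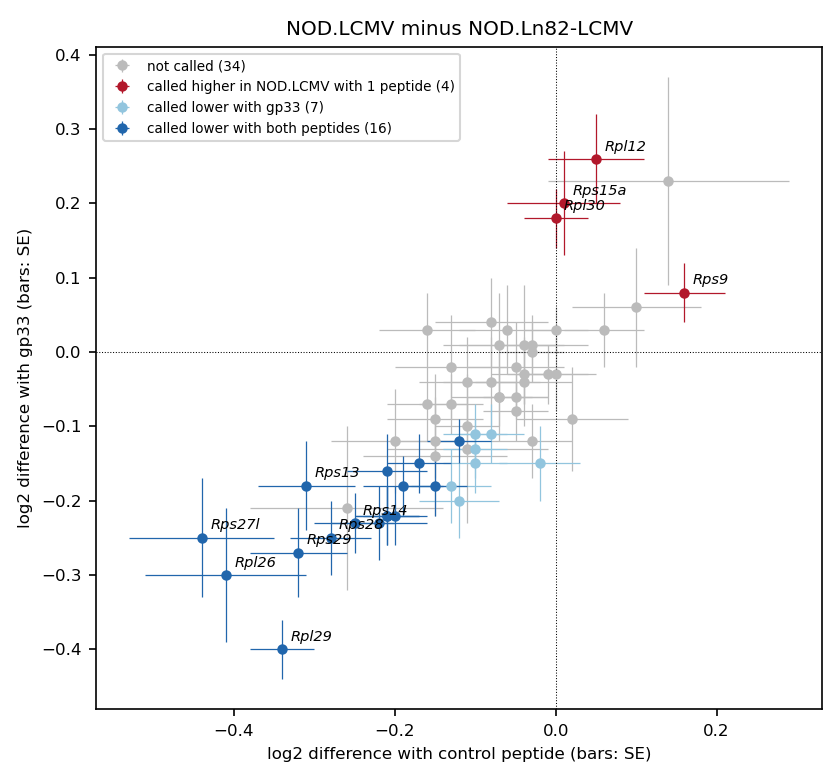
Log2 difference between the strains with the control peptide (horizontal axis) and with gp33 (vertical axis) for the 61 members, with standard errors as bars and the calls as colours. The 16 members called lower with both peptides sit at the lower left, with Rpl29 lowest on the vertical axis at -0.40, and the 4 members called higher with one of the peptides lie above 0.

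Rpl29 had the largest difference with gp33. This large subunit protein stood at 11.90, 11.96, 11.89 and 11.89 in NOD.Ln82-LCMV and at 11.54, 11.63 and 11.53 in NOD.LCMV with the control peptide. With gp33 it stood between 11.97 and 12.00 in the 5 NOD.Ln82-LCMV mice and at 11.58, 11.56 and 11.61 in the 3 NOD.LCMV mice. Every NOD.LCMV value lay below every NOD.Ln82-LCMV value. The differences were -0.34 ± 0.04 (limma adjusted p 9.71e-05) and -0.40 ± 0.04 (limma adjusted p 6.96e-07), or 1.27-fold and 1.32-fold lower. Rpl29 lies on chromosome 9, but its single probe set has neighbours from chromosome 15, so whether the parent gene or a copy gave this signal is not resolved by these arrays.

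Rps28 and Rps29, small proteins of the small subunit known for mutations in Diamond-Blackfan anaemia, were measured at their own loci. Rps28 stood at 11.97, 12.11, 12.04 and 12.10 in NOD.Ln82-LCMV and at 11.84, 11.75 and 11.74 in NOD.LCMV with the control peptide. With gp33 it stood at 12.10, 12.07, 12.04, 11.89 and 12.07 against 11.77, 11.80 and 11.79. The lowest NOD.Ln82-LCMV mouse, at 11.89, was still above the highest NOD.LCMV mouse. The differences were -0.28 ± 0.05 (limma adjusted p 0.00367) and -0.25 ± 0.05 (limma adjusted p 0.00159).

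Rps29 gave -0.32 ± 0.06 with the control peptide (limma adjusted p 0.0037) and -0.27 ± 0.06 with gp33 (limma adjusted p 0.00215). Its NOD.LCMV values ran from 11.30 to 11.42 and its NOD.Ln82-LCMV values from 11.45 to 11.75, again apart. Rpl36, of the large subunit, gave -0.21 ± 0.04 (limma adjusted p 0.00198) and -0.22 ± 0.04 (limma adjusted p 0.000236). Its values were tightly grouped, at 12.24 to 12.28 in all 6 NOD.LCMV mice and 12.44 to 12.53 in all 9 NOD.Ln82-LCMV mice. Its brightest probe set lay elsewhere, and the one at its own locus gave -0.19 and -0.23.

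Rps14, whose loss underlies the anaemia of the human 5q deletion syndrome, stood at 12.10 to 12.13 in NOD.LCMV and at 12.30 to 12.39 in NOD.Ln82-LCMV with the control peptide. The differences were -0.25 ± 0.05 (limma adjusted p 0.0033) and, with gp33, -0.23 ± 0.04 (limma adjusted p 0.00114). At its own locus the second probe set gave larger differences, -0.33 and -0.40. Rpl10a, of the large subunit, differed by -0.21 ± 0.04 (limma adjusted p 0.00612) and -0.22 ± 0.04 (limma adjusted p 0.000725).

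Rpl10a, Rpl29, Rpl36, Rps14, Rps28 and Rps29 were the 6 members called lower with both peptides under all 24 alternative settings other than own-locus probe sets, and under that setting 5 of them were called lower with both too. Rpl29 has no probe set placed at its own locus and could not be tried there.

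With the control peptide Rps27l and Rpl26 gave larger but more variable differences. Rps27l, a variant of Rps27 that p53 induces, stood at 11.40, 11.67, 11.61 and 11.50 in NOD.Ln82-LCMV and at 11.20, 11.19 and 10.93 in NOD.LCMV with the control peptide. The difference was -0.44 ± 0.09 (limma adjusted p 0.00534), and with gp33 it was -0.25 ± 0.08 (limma adjusted p 0.039), which lost its call under 9 of 25 settings. Rpl26, a large subunit protein that also binds p53 messenger RNA, differed by -0.41 ± 0.10 (limma adjusted p 0.0153) and -0.30 ± 0.09 (limma adjusted p 0.0254). One NOD.Ln82-LCMV mouse with gp33, at 10.06, lay within the NOD.LCMV range of 9.97 to 10.22 for Rpl26.

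Further members were called lower with both peptides. Rps13 differed by -0.31 ± 0.06 with the control peptide and by -0.18 ± 0.06 with gp33, where its call was lost under 10 of 25 settings. For Rps18 the differences were -0.22 ± 0.06 and -0.23 ± 0.05, for Rpl23a -0.20 ± 0.04 and -0.22 ± 0.04, and for Rpl36a -0.21 ± 0.05 and -0.16 ± 0.05. Those of Rpl27a were -0.19 ± 0.05 and -0.18 ± 0.04. Rpl27, at -0.12 ± 0.04 and -0.12 ± 0.03, was the smallest of the 16 with the control peptide and kept that call under 10 of 25 settings. Rpl7a, at -0.15 ± 0.04 and -0.18 ± 0.04, lost its call with the control peptide under 10 of 24. Members called lower with gp33 but not with the control peptide were Rpl3l, Rpl6, Rpl9, Rpl19, Rpl28, Rps4l and Rps20, at -0.11 to -0.20 with gp33. Of these calls, that of Rpl19 was lost under 16 of 25 settings, that of Rps20 under 12 of 25, that of Rpl3l under 9 of 24 and that of Rpl6 under 7 of 25. The probe set counted here also mattered. At their own loci, Rpl9 (-0.19 and -0.18) and Rpl19 (-0.16 and -0.17) were called lower with both peptides. Rps4l was called there with the control peptide only (-0.21, and -0.17 with gp33), and Rpl6 with neither (-0.09 and -0.06).

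Few members were higher in NOD.LCMV. Rps9 was so with the control peptide (0.16 ± 0.05, limma adjusted p 0.047), a call lost under 15 of 25 settings. With gp33 the higher members were Rpl12 (0.26 ± 0.06, limma adjusted p 0.0023), Rpl30 (0.18 ± 0.04, limma adjusted p 0.00475) and Rps15a (0.20 ± 0.07, limma adjusted p 0.0475). Of these, Rps15a lost its call under 13 of 25 settings, and Rpl12 and Rpl30 kept theirs under all 25. With the control peptide Rpl12 and Rpl30 had differences of 0.05 ± 0.06 and 0.00 ± 0.04.

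Variants could be set beside their parents only in part, since Rpl3, Rpl39, Rpl22l1 and Rps27 were not measured as single genes. Rps4l, annotated as a transcribed pseudogene, gave -0.12 ± 0.05 and -0.20 ± 0.05, while Rps4x, its X-linked parent, gave -0.11 ± 0.04 and -0.10 ± 0.04, neither called. Rpl7l1 gave -0.16 ± 0.06 and 0.03 ± 0.05, and Rpl7 gave -0.07 ± 0.06 and -0.06 ± 0.06, none of them called. Rpl10, which has its role at the joining of the subunits, was lower with both peptides (-0.17 ± 0.04 and -0.15 ± 0.04), and Rpl10l, near the bottom of the scale, gave -0.11 ± 0.10 and -0.13 ± 0.10 without a call. Rpl22, the protein on which αβ T cells depend, gave 0.06 ± 0.05 and 0.03 ± 0.05, and Rpl39l gave -0.04 ± 0.08 and 0.01 ± 0.08, with no call for either.

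**Figure D4:**
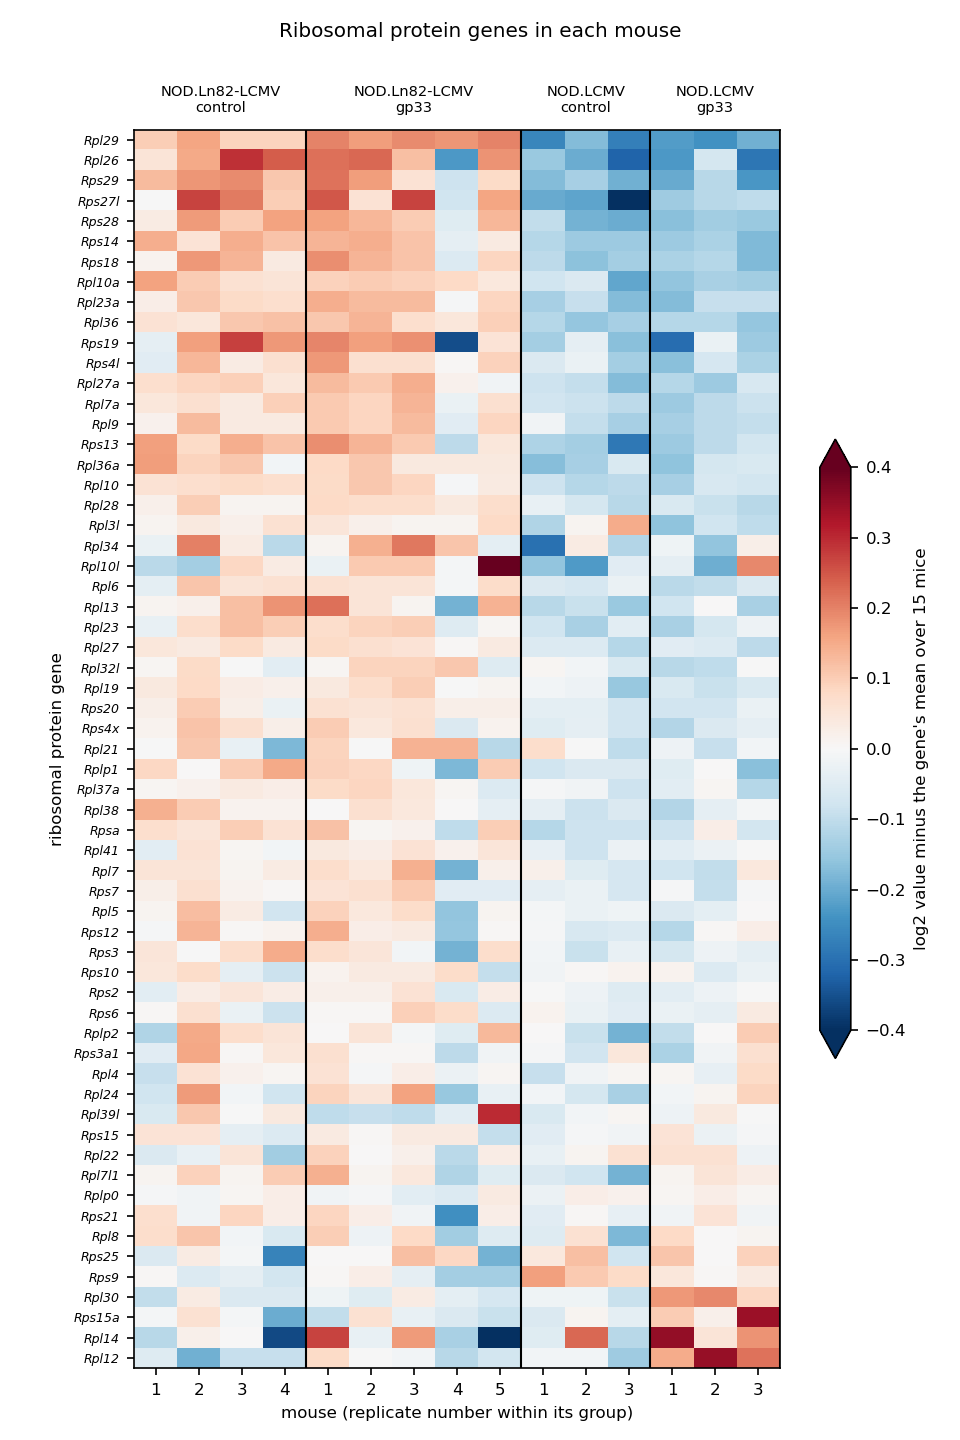
Log2 value of each of the 61 members (rows, ordered by the strain difference with gp33) in each of the 15 mice (columns, by group and replicate number), minus the gene's mean over all mice; red is higher, blue is lower, and values beyond 0.4 take the end colour. The upper rows are red in NOD.Ln82-LCMV and blue in NOD.LCMV with either peptide, and NOD.Ln82-LCMV mouse 4 with gp33 is paler or bluer than its group in many rows.

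Averaged over the 61 members, mice with the control peptide lay between 11.50 and 11.56 in NOD.Ln82-LCMV and between 11.38 and 11.43 in NOD.LCMV. With gp33 the ranges were 11.43 to 11.57 and 11.42 to 11.45, and they met at NOD.Ln82-LCMV mouse 4. That mouse was the lowest of its 5 for 44 of the 61 members. Without it 20 members were lower in NOD.LCMV with the control peptide and 27 with gp33.

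The choice of probe set mattered for single genes. For 28 members whose brightest probe set lay elsewhere, a probe set at the own locus was also measured, and 25 of the 28 had the same sign of the strain difference with the control peptide and 24 with gp33. With own-locus probe sets for the 55 members that have one, 19 were lower with the control peptide and 21 with gp33. Rpl23, named after its values were seen, gave opposite signs with gp33, -0.12 on its brightest probe set and 0.19 at its own locus, neither called. For Rps15 with gp33 the brightest probe set gave 0.01 ± 0.04 and the one at its own locus -0.17 ± 0.05, called lower. Rpl21 had 9 probe sets, none at its own locus. With the control peptide the brightest gave 0.02 ± 0.07, while the others gave -0.13 to -0.22. With gp33 the brightest gave -0.09 ± 0.07, and the others gave -0.18 to -0.29. In a fit over all probe sets, the others had a limma adjusted p of at most 0.0125 with gp33. With the control peptide theirs ran from 0.00801 to 0.139. On its brightest probe set Rpl21 was not called with either peptide.

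**Figure D5:**
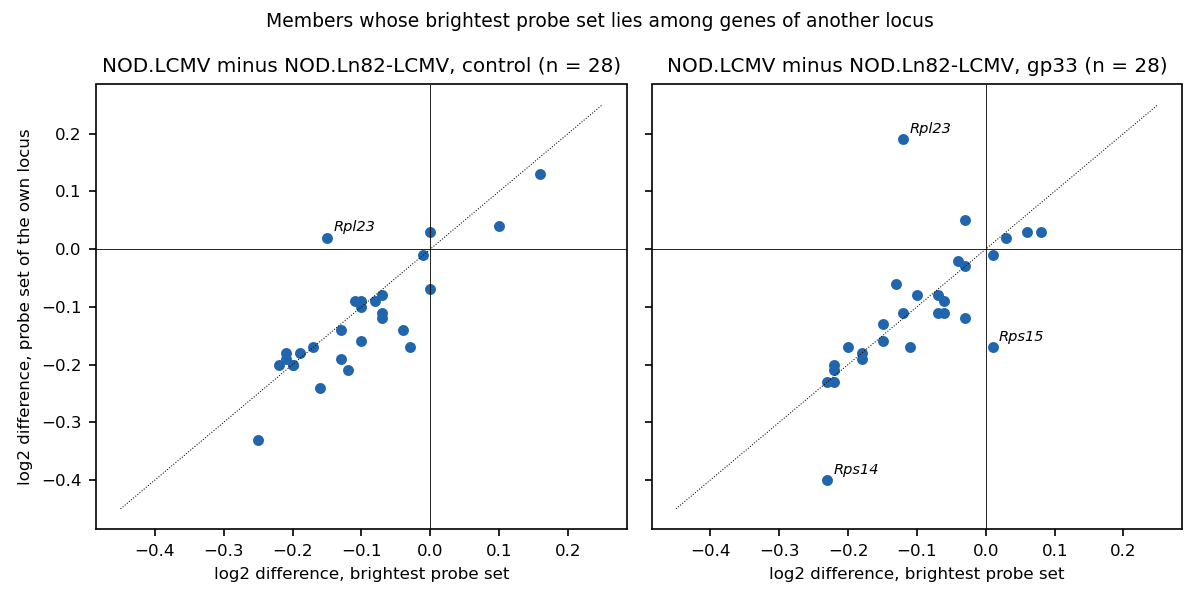
Strain difference (log2, NOD.LCMV minus NOD.Ln82-LCMV) of 28 members on the brightest probe set (horizontal axis) and on the probe set at the gene's own locus (vertical axis), with the control peptide on the left and gp33 on the right; the dotted line marks equality. Most points lie near the line and below 0 on both axes; genes that differ by at least 0.15 between probe sets are labelled, among them Rpl23, Rps15 and Rps14 with gp33.

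The count of lower members depended on how arrays were scaled. With the control peptide it was 30 after each array was centred on its median (10.7% of all genes called lower) and 25 with array weights (10.3%), but 13 after cyclic loess (6.58%) and 14 after a trend on gene span was removed (5.39%). With gp33 it was 27 after centring (21.5%) and 28 with array weights (19.7%), but 14 after cyclic loess (15.2%) and 13 after the span trend was removed (13.8%). Leaving out NOD.LCMV control mouse 3 gave 10 with the control peptide, and leaving out NOD.LCMV gp33 mouse 1 gave 15 with gp33.

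Other genes of translation differed between the strains as well. Fau, which encodes a further small subunit protein fused to a ubiquitin-like domain, was lower in NOD.LCMV by limma with both peptides (-0.18 ± 0.03, adjusted p 0.00477, and -0.21 ± 0.03, adjusted p 0.000242). It ranged from 12.70 to 12.78 in the 6 NOD.LCMV mice and from 12.90 to 12.97 in the 9 NOD.Ln82-LCMV mice. Of the 77 mitochondrial ribosomal proteins, 27 were lower (35.1%, against 5.54% of all genes) and 1 higher with the control peptide. With gp33, 28 were lower (36.4%, against 16.8%) and 5 higher (6.49%, against 10.2%). Mrpl52 of the mitochondrial large subunit gave -0.69 ± 0.06 and -0.62 ± 0.06, and Mrps15 of the small subunit gave -0.39 ± 0.04 and -0.47 ± 0.04. Of 21 translation factors 4 were lower with the control peptide (19%, against 5.54% of all genes), among them Eif3k (-0.20 ± 0.04) and Eif3i (-0.34 ± 0.07). With gp33, 3 were lower (14.3%, under the 16.8% of all genes) and 2 higher, and their median of -0.02 equalled that of all genes.

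Ribosome biogenesis genes differed in opposite directions with the 2 peptides. With the control peptide 12 of 49 were lower in NOD.LCMV (24.5%, against 5.54% of all genes) and 0 were higher. With gp33 36 were higher (73.5%, against 10.2% of all genes) and 0 lower by limma. Nob1, which trims the RNA of the small subunit, stood at 9.75 to 9.79 in the 3 NOD.LCMV mice with the control peptide, against 9.99 to 10.19 in NOD.Ln82-LCMV. With gp33 it stood at 10.15 to 10.31 in NOD.LCMV and at 9.91 to 10.20 in NOD.Ln82-LCMV, ranges that overlap.

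Markers of some cell types also differed between the strains. Of 5 measured markers of B and plasma cells, 1 was lower in NOD.LCMV with the control peptide (20%, against 5.54% of all genes). With gp33, 3 were lower (60%, against 16.8% of all genes). The mean of these markers ran from 8.10 to 9.02 in NOD.Ln82-LCMV and from 7.81 to 8.75 in NOD.LCMV with the control peptide, and from 8.76 to 9.38 and 7.76 to 8.46 with gp33. Of the 11 thymocyte markers 0 were called with the control peptide by limma (1 higher and 2 lower at an unadjusted p under 0.05), and 5 were lower with gp33 (45.5%). Also lower with gp33 were 4 of 7 thymic epithelium markers, 4 of 7 of macrophages and dendritic cells and 3 of 6 of fibroblasts and endothelium. With the control peptide 0 of these were lower, and 1 of fibroblasts and endothelium was higher. Of the adipocyte and skeletal muscle markers 0 were called with either peptide. The single red cell marker measured, Alas2, was lower with both peptides (-0.73 ± 0.21 and -1.09 ± 0.20). Of 6 granulocyte markers 1 was higher with the control peptide (16.7%, against 4.77% of all genes) and 3 with gp33 (50%, against 10.2%). The part of these cells in the ribosomal protein differences was not tested.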

How the data were processed

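Arrays of 15 thymi were used, 1 per mouse, in the 4 groups of strain and peptide that the labels give. The deposited values are log2 values per probe set; per the submitters' processing notes, the tools behind them were Affymetrix Expression Console 1.1 and the RMA method, and no further normalization was applied. The genome build behind the array annotation is not given in the sources used here. Of 35556 probe sets, 21789 carry 1 symbol, and the brightest per symbol over all arrays stood for a gene. The rest were left out of the tests: 12146 without annotation and 1621 with several symbols.

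One linear model with a mean per group was fitted over all genes in limma 3.58.1 (R 4.3.3), with Benjamini-Hochberg adjustment over 19938 genes and two-sided tests. It was tested on simulated data first. Single genes were also compared by an exact permutation test, which for 3 against 3 mice cannot go below 0.10. Probe sets were placed from the 5 annotated neighbours on each side within 5 Mb on GRCm38.p6.

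Named genes were up to 10 called members per direction and comparison with the largest difference, or else the 3 with the smallest p, the 3 brightest and 3 dimmest members, variants with their parents, members whose probe sets disagree in direction where one is called, and up to 3 genes of each other list. Alternatives were other scalings, probe set choices, variance models, samples in the fit, a replicate block and leaving out each mouse. The members, lists and tests were chosen with earlier results of these data known, and own-locus probe sets, cyclic loess and the trend on gene span were added after seeing the data. NOD.Ln82-LCMV mice of both peptides share the numbers 1 to 4, but the deviations of same-numbered mice correlated at 0.12, 0.01, -0.05 and -0.23, so the numbers were not taken to pair them.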

Additional observations from a re-analysis of the deposited data

Results flagged for a closer look

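In the groups of 4 and 5 mice, a value was picked out where 1 mouse lay so far from the rest that its gap took up most of the group's range (Dixon's test at 95%). Of 62 values tested per group (the 61 members and their mean), 3 were picked out in NOD.Ln82-LCMV with the control peptide and 9 with gp33; chance alone picks about 5 in 100.

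With the control peptide all 3 belonged to mouse 2, which was high: Rpl28 at 13.48 (the other mice 13.39 to 13.40), Rpl29 at 11.96 (11.89 to 11.90) and Rps12 at 11.88 (11.74 to 11.76).

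With gp33, 6 of the 9 belonged to mouse 4, which was low each time. Rps19 stood at 11.23 against 11.64 to 11.78 in the others, and Rpl26 at 10.06 against 10.41 to 10.52. Rps28 stood at 11.89 (12.04 to 12.10), Rpl9 at 12.83 (12.96 to 13.00), Rpl6 at 12.84 (12.90 to 12.92) and Rpl28 at 13.42 (13.45 to 13.46). Mouse 5 gave the other 3, high for the dim variants Rpl10l at 7.07 (6.62 to 6.75) and Rpl39l at 5.59 (5.19 to 5.25), and low for Rps15 at 13.15 (13.25 to 13.28).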

How the results depend on the processing

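The calls of Rpl12 and Rpl30 with gp33 in NOD.LCMV, and the absence of calls in NOD.Ln82-LCMV, held under every setting tried, and no called member changed sign under any of them. With the control peptide, 16 members were lower in NOD.LCMV; the count was 30 after median centring and 25 with array weights, and it ran from 10 to 20 when single mice were left out. With gp33, 23 were lower; the count was 14 after cyclic loess and 13 with the gene span trend removed, and it ran from 15 to 27 when single mice were left out. The median strain difference with the control peptide, -0.10, became -0.17 after median centring and -0.07 after cyclic loess. With gp33, -0.09 became -0.03 after a second quantile normalization (all genes -0.05), -0.13 after median centring, -0.03 after cyclic loess and -0.06 with the span trend removed. The 1 member higher with the control peptide, Rps9, gave 0 calls after median centring, with the mean over probe sets, with only the groups compared, with own-locus probe sets and with the span trend removed, and 0 to 1 when single mice were left out. Cyclic loess called 4 members higher with gp33 in NOD.LCMV (Rpl12, Rpl30, Rps15a and Rpl7l1) and gave 1 member, Rpl30, with a larger response than in NOD.Ln82-LCMV. The count of members lower with gp33 in NOD.LCMV was 0 to 1 when single mice were left out; the 1 was Rpl3l without control mouse 1. The causes were not tested. With the replicate block on the shared mouse numbers of NOD.Ln82-LCMV, 0 members were called in the gp33 response of that strain (median 0.00) and 0 in the difference between the responses (median 0.01), and the block changed no call.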

Other observations

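Probe sets that carry a ribosomal protein symbol together with other symbols were left out of the comparisons of genes. There were 237 of them. In a fit over all 35556 probe sets, 117 (49.4%) were lower in NOD.LCMV with the control peptide and 137 (57.8%) with gp33, against 4.71% and 12.1% of all probe sets. Several of these probe sets can report one transcript, so they are not independent counts. With gp33 in NOD.LCMV, 2 of the 237 were higher and 0 lower by limma, against 4.98% and 7.68% of all probe sets.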
